A study of Homo sapiens with 8 samples.

Results

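CYTOR, the cytoskeleton regulator RNA, is a long noncoding RNA transcribed from human chromosome 2. It is 1 of the 60286 genes in a table of estimated counts for 43693 single cells from neural cultures derived from the established line H1, which goes back to a human embryo and is pluripotent. The gene was chosen because its level was lower in the AcMor and AcCoc tags than in the Vehic tags of the arrangement called 2DCocu, so those differences are described here and carry no test. Each cell name holds a culture tag with 3 parts, the arrangement, the treatment where there is one, and a number.

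The labels list 2-D and 3-D cultures and the treatments dopamine, cocaine, morphine and untreated, but give the 8 samples as sublibraries of one pool of cells that each hold all treatments. Groups were therefore taken from the 46 tags, in 9 arrangements and 17 groups. In 2DCocu the tags were AcCoc, AcMor and Vehic, with 4 tags each. In 2DMono and 3DMono they were AcDop, AcMor and Vehic, with 2 tags each. In 3DFusi there were 4 AcCoc tags, 3 AcMor tags and 3 Vehic tags. The arrangements 2DProto2Fjo, 2DProto3Wu and 2DProto4Nic had 2 tags each and 3DProto1For and 3DProto2Xia had 3 each, with no treatment in the tag. The labels do not spell out the tags, and give no dose, time or culture age. All tags share the 1 cell line, and the cells were fixed before barcoding. They do not say whether numbered tags came from separate cultures either, so every p-value measures only the spread between tags. A tag held 317 to 1959 cells and 3624668 to 58777178 counts, and the median cell held 12775 counts. Of 41192 cell barcodes, 2393 occurred in more than 1 sublibrary, where they were taken as different cells. CYTOR stood at 3.72 to 4.66 CPM in the 8 sublibraries, where CPM is the count scaled to the total of all genes, so its level hardly varied with the sublibrary.

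Long noncoding RNAs are transcripts that are processed much as messenger RNAs are but encode no known protein. CYTOR is best known from tumours, where it has been linked to growth, migration and the actin cytoskeleton. In the human genome it has a near-identical copy, MIR4435-2HG, the host gene of a microRNA. That copy is also known as MORRBID, which in short-lived myeloid cells holds down the neighbouring cell-death gene BCL2L11. The YAP and TEAD factors, which read cell shape and tension, and the AP-1 factors are general regulators of genes of spread, adherent cells. None of this background was tested in the present data.

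The GENCODE annotation of GRCh38 places CYTOR (ENSG00000222041) on chromosome 2 from 87454781 to 87636740 on the plus strand, and MIR4435-2HG (ENSG00000172965) on the same chromosome from 111036776 to 111523376 on the minus strand. Both are annotated as long intergenic noncoding RNA. The 529-base transcript CYTOR-201 and the 514-base MIR4435-2HG-203 could be aligned over 515 columns, of which 509 were identical (98.83%), 5 were mismatches and 1 was a gap. The following stretches of that pair are shown because they hold 3 of the 5 mismatches and are otherwise the same in both genes. They run 5′ to 3′ from base 144 to 293 of CYTOR-201 and from base 129 to 278 of the copy, and capitals mark the bases that differ, T215C, C277T and G293T, with the CYTOR base first and positions counted from 1 at the 5′ end of CYTOR-201.
CYTOR-201: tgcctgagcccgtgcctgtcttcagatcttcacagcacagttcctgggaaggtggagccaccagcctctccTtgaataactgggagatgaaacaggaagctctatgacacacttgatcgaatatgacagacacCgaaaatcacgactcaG
MIR4435-2HG-203: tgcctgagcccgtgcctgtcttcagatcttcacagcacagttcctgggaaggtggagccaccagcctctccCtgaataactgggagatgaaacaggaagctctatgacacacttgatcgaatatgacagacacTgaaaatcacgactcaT
Only 3 of 150 bases differ. Over all annotated transcripts, 18.68% of the distinct 31-base words of CYTOR also occurred in MIR4435-2HG, and 25.21% of those of MIR4435-2HG occurred in CYTOR.

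The shared sequence also takes in the annotated start of the copy and most of the bases shown before that of CYTOR. The promoter windows below come from RefSeq (GRCh38.p14) and are shown because both genes were lower together in the AcMor and AcCoc tags of 2DCocu. They hold 250 bases before and 50 after each annotated start, chr2:87455177-87455476 on the plus strand for CYTOR and chr2:111495112-111495411 on the minus strand for the copy. Both are written 5′ to 3′ along the gene, with capitals for the AP-1 motif TGAGTCA.
CYTOR promoter: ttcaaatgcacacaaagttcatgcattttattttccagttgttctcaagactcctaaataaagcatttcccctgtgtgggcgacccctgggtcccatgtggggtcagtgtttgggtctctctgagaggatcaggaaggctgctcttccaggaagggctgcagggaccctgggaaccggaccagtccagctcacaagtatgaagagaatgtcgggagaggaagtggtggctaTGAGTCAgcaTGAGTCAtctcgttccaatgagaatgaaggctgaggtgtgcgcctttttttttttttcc
MIR4435-2HG promoter: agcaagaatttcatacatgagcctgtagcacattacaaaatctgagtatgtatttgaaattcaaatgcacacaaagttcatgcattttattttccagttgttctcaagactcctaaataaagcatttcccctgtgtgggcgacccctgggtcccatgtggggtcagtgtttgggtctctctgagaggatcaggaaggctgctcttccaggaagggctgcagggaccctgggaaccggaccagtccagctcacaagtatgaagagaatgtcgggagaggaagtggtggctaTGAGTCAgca
The first 241 bases of the CYTOR window were identical to bases 60 to 300 of the copy's window. The CYTOR window held TGAGTCA 2 times, from bases 232 and 242, before its annotated start. The window of the copy held it 1 time, from base 291, after its annotated start. The shared stretch runs to the last base of the copy's window, and the copy's sequence beyond it was not read. Searched on both strands (TGAGTCA and TGACTCA), the motif occurred at least 1 time in 4.95% of 35116 promoter windows of this length and at least 2 times in 0.222%. The TEAD motif GGAATG, searched with CATTCC, occurred in 14% of all windows and in neither of these 2. A match describes the letters only.

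CYTOR summed to 3237.1 counts, 4.08 CPM over all cells, and MIR4435-2HG to 133807 counts, 41.3 times as many. Counts are not per length here, so that ratio does not compare numbers of transcripts. CYTOR had an entry in 2548 cells, but only 75 of these entries (2.943%) were whole numbers, against 14.77% for the copy. The median CYTOR entry was 0.7506, 57.85% lay below 1, and the highest was 15.62. A cell was taken to have a count where its entry reached 0.5, which held for 1765 cells, 4.04% of all. Of the cells with a CYTOR entry, 84.3% also had a MIR4435-2HG entry, and the 400 cells without one held 402.3 CYTOR counts, 12.43% of the total. How the authors' tools divided reads that fit both genes is not given in the sources used here. The CYTOR level is therefore uncertain, and the copy's level and the CYTOR share of the pair's summed counts are given beside the main results by tag and arrangement.

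CYTOR was a gene of the 2DCocu and 2DMono arrangements. These 2 held 57.62% and 23.91% of all CYTOR counts, with 23.83% and 11.08% of the cells. In 2DCocu the 12 tags ran from 6.50 to 23.5 CPM with a median of 9.67. In 2DMono the AcDop tags stood at 8.60 and 12.6 CPM, the AcMor tags at 5.90 and 12.4 CPM and the Vehic tags at 6.11 and 13.8 CPM. In each of these 3 groups the tag numbered 1 was lower than the tag numbered 2. In 3DFusi the AcCoc tags 1 to 4 held 0.110, 0.661, 4.85 and 3.17 CPM. The AcMor tags 1, 3 and 4 of 3DFusi held 0.515, 2.31 and 1.75 CPM, and the Vehic tags 1, 3 and 4 held 0.167, 1.09 and 2.12 CPM. Within every treatment of 3DFusi the tag numbered 1 was lowest. The 6 tags of 3DMono lay between 0.133 and 0.429 CPM on 2.62 to 6.96 counts each, close to the 3 counts taken as the floor. CYTOR counts were under that floor in 3 of the 46 tags.

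In the arrangements with no treatment in the tag CYTOR was low, as it was in the treated 3DFusi and 3DMono. The 2DProto2Fjo tags held 0.683 and 1.26 CPM, the 2DProto3Wu tags 2.597 and 1.48 CPM, and the 2DProto4Nic tags 1.45 and 1.87 CPM. The 3DProto1For tags held 0.884, 0.272 and 0.687 CPM and the 3DProto2Xia tags 0.531, 0.689 and 0.395 CPM. Among these 5 arrangements 2DProto4Nic stood apart in the copy, with 339 and 410 CPM of MIR4435-2HG, and only 2DCocu Vehic 1 and the 2DMono tags reached the lower of these. CYTOR made up only 0.427% and 0.455% of the pair there, against 2.58% to 6.99% in 2DCocu and 1.52% to 2.64% in 2DMono. A high level of the copy thus did not always come with a high level of CYTOR.

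In the order of the group means, 2DCocu Vehic came first with 22.0 ± 2.02 CPM (SD, n = 4 tags), and its lowest tag (19.04) lay above the highest of all other tags (14.1). Then came 5 groups whose ranges overlapped, 2DMono AcDop with 10.6 ± 2.80 CPM (n = 2), 2DMono Vehic with 9.97 ± 5.47 (n = 2), 2DCocu AcCoc with 9.38 ± 3.33 (n = 4), 2DMono AcMor with 9.18 ± 4.63 (n = 2) and 2DCocu AcMor with 8.13 ± 1.74 (n = 4). A gap separated these from the next group, 3DFusi AcCoc with 2.20 ± 2.22 CPM (n = 4), since no tag of the latter exceeded 4.85 CPM. The next 2 groups, 2DProto3Wu with 2.04 ± 0.788 CPM and 2DProto4Nic with 1.66 ± 0.298 CPM (n = 2 each), overlapped with it. 3DMono AcMor was lowest, with 0.278 ± 0.205 CPM (n = 2), and its range overlapped those of the other 2 groups of 3DMono. These orders are a description with no test.

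**Figure D1:**
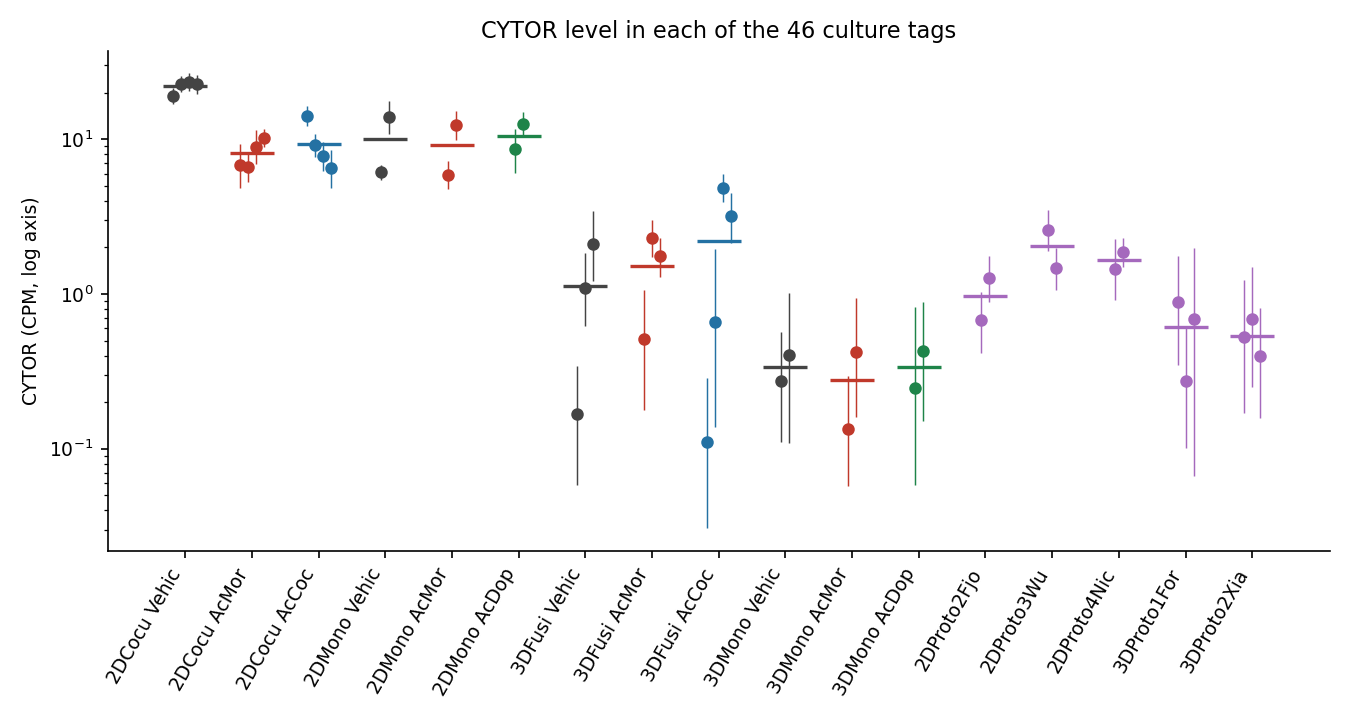
CYTOR in CPM on a log axis for each of the 46 culture tags, grouped by arrangement and treatment; points are tags, vertical bars are 95% intervals for counting error alone, and horizontal bars are group means. Grey marks Vehic, red AcMor, blue AcCoc, green AcDop and violet tags with no treatment. The 2DCocu Vehic tags lie between 19.04 and 23.5 CPM, above all other tags, and the 3DMono tags lie between 0.133 and 0.429 CPM.

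In 2DCocu every AcMor tag and every AcCoc tag was lower in CYTOR than every Vehic tag, which is the pattern that chose the gene. The Vehic tags 1 to 4 held 19.04, 22.9, 23.5 and 22.6 CPM. The AcMor tags held 6.80, 6.58, 8.95 and 10.2 CPM, and the AcCoc tags held 14.1, 9.15, 7.77 and 6.50 CPM. The Vehic tags were close together, and AcCoc tag 1 was the nearest of the treated tags to them. The Vehic mean was 2.71-fold that of AcMor (log2 difference -1.44) and 2.35-fold that of AcCoc (log2 difference -1.23). Both differences are set against the same Vehic tags. Of 21032 genes that passed the filter on low counts, 1239 (5.89%) had every AcMor tag under every Vehic tag, 1427 (6.78%) had every AcCoc tag under every Vehic tag, and 625 (2.97%) had both. With edgeR's quasi-likelihood test, 205 genes (0.975%) differed between AcMor and Vehic at an adjusted p of 0.05, 61 of them lower in AcMor, and 1283 (6.10%) differed between AcCoc and Vehic, 525 of them lower in AcCoc.

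The share of cells with a CYTOR count moved the same way as the CPM. It was 15.95% ± 2.36 (SD, n = 4) in Vehic, 6.76% ± 1.21 in AcMor and 6.86% ± 1.44 in AcCoc, with no overlap. MIR4435-2HG was lower too, by less. It held 328 ± 22.8 CPM in Vehic, 225 ± 26.4 in AcMor and 224 ± 29.8 in AcCoc (SD, n = 4 each), so the Vehic mean was 1.46-fold that of either, and the tags did not overlap. CYTOR made up 6.33% ± 0.902 of the pair's counts in Vehic, 3.58% ± 1.18 in AcMor and 3.98% ± 0.990 in AcCoc. These shares overlapped, because Vehic tag 1 (5.00%) lay below AcMor tag 4 (5.14%) and AcCoc tag 1 (5.17%).

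The size of the difference depended on which entries were read. With CYTOR and its copy summed, the log2 differences were -0.59 for AcMor and -0.59 for AcCoc, still with no overlap. That sum is mostly the copy, which alone gave -0.54 and -0.55. With whole-number entries only they were -0.74 and -1.10, and the groups overlapped at means of 0.706 CPM or less. In cells with no MIR4435-2HG entry, a subset chosen after seeing the data, they were -1.26 and -1.36 with no overlap.

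**Figure D2:**
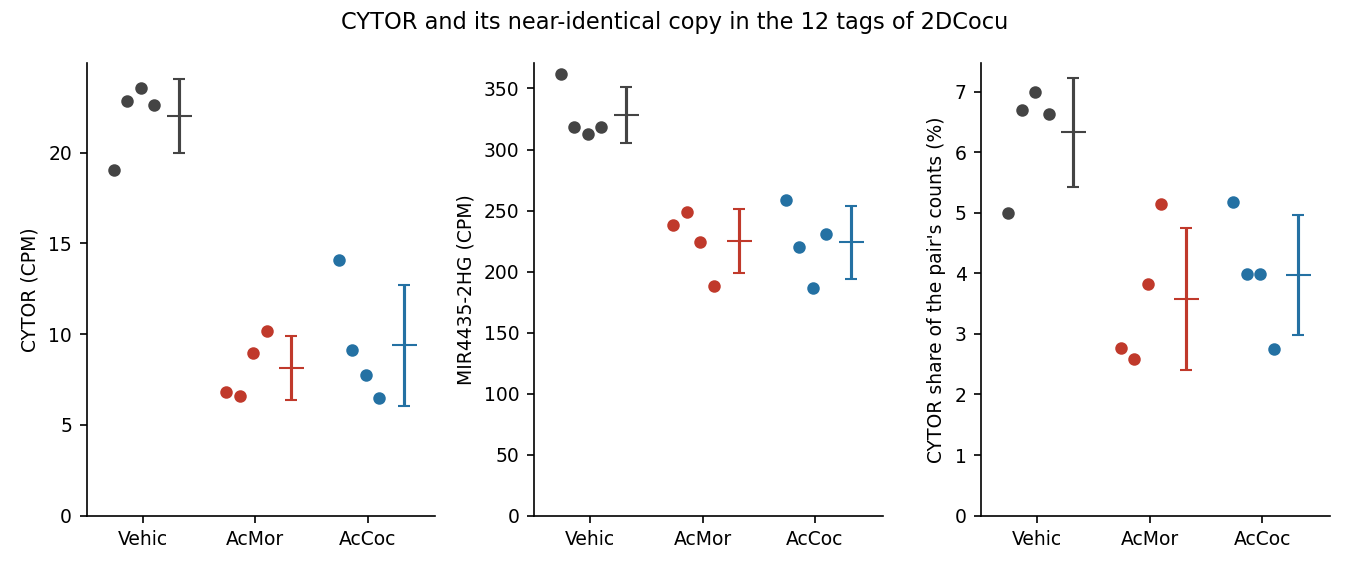
CYTOR (CPM), MIR4435-2HG (CPM) and the CYTOR share of the pair's counts (%) in the 12 tags of 2DCocu by treatment; points are tags, and the bar beside them is the mean with 1 SD (n = 4). In the first 2 panels all Vehic points lie above all treated points, and in the third Vehic tag 1 at 5.00% lies among the treated tags.

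CYTOR was concentrated in a small part of the cells. Clustering without CYTOR and its copy gave 42 clusters, and levels by cluster are described with no test. Clusters 36, 4 and 2 were highest and held 64.16% of all CYTOR counts (exact binomial 95% interval 62.48% to 65.82%, counting error only) in 5307 cells, 12.15% of all. Levels are over the pooled cells of a cluster unless tags are named. As means over tags, cluster 2 with 27.7 ± 14.9 CPM (SD, n = 18) stood above cluster 4 with 20.8 ± 9.10 CPM (n = 12), and cluster 36 moved from 53.9 CPM (n = 3) to 27.3 CPM when the 1 tag with at least 50 cells was used. Cluster 36, 321 astrocyte-like cells, held 41.0 CPM (interval 35.5 to 46.9). It had GFAP at 775 CPM against 18.9 CPM in all other cells, the water channel AQP4 at 31.6 against 0.336 CPM and the hyaluronan receptor CD44 at 853 against 44.7 CPM. Of its cells 68.85% came from 2DMono.

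Cluster 4, 2189 cells of which 99.73% came from 2DCocu, held 22.8 CPM of CYTOR (interval 21.0 to 24.6). Among its leading genes was ALDH1L1, an astrocyte enzyme, at 255 CPM against 7.98 CPM in all other cells, with GFAP at 160 against 18.7 CPM. AQP4 at 0.856 against 0.521 CPM and the glial calcium-binding gene S100B at 3.23 against 2.93 CPM were low inside and outside the cluster. Of the other astrocyte genes, GJA1 at 12.1 against 40.4 CPM and SLC1A2 at 114 against 208 CPM were lower than in all other cells, and SPARCL1 at 118 against 60.8 CPM and SLC4A4 at 116 against 92.9 CPM higher. The list with most markers in it was the ciliated or ependymal one, with 3 of 8, among them DNAH9 at 89.97 against 33.1 CPM and SPAG17 at 51.1 against 24.2 CPM. That was too few for a name. Cluster 2, 2797 cells, held 20.2 CPM of CYTOR (interval 19.1 to 21.4). Its leading genes included the peptide transporter SLC15A1, the interleukin receptor IL1R1, the growth factor BMP6, the matrix gene FBLN2 and the chemokine CXCL14. The list with most markers in it was the astrocyte one, with 3 of 8, and it stayed unnamed too. The glial glutamate transporter SLC1A3 stood at 727 against 322 CPM in all other cells. Of the collagen genes, COL1A1 at 1034 against 420 CPM was higher there, and COL1A2 at 47.1 against 200.4 CPM and COL3A1 at 138 against 293 CPM were lower. The microglial genes C1QA, C1QB and TYROBP were at 0 in all 3 clusters, and AIF1 did not exceed 0.0363 CPM. CSF1R was lower in each than in all other cells, at 3.67 to 6.35 CPM. CX3CR1 was higher in each, at 0.601 against 0.0919 CPM in cluster 36, and PTPRC was higher in cluster 4, at 7.14 against 3.33 CPM. The last of the 8 microglial markers, P2RY12, stood at 0.594 to 0.942 CPM. No cluster could be named microglia- or macrophage-like.

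Next came cluster 40 with 13.9 CPM, cluster 32 (cycling) with 13.2, cluster 27 (mesenchymal-like) with 11.2 and cluster 31 (unnamed) with 10.4 CPM. The counting intervals of clusters 40, 32, 27 and 31 overlapped. Cluster 40 is called by its number, since 4 of 8 ciliated or ependymal markers (SPAG17 at 99.9 against 24.8 CPM) and 4 of 8 mesenchymal markers (COL3A1 at 1032 against 277 CPM) were counted in it. Of these 4, cluster 32 had most of its cells in 2DMono and the other 3 in 2DCocu. MIR4435-2HG was high in clusters where CYTOR was not. Cluster 22 (mesenchymal-like, 92.37% from 2DProto4Nic) held 590 CPM of the copy and 3.52 CPM of CYTOR, 0.593% of the pair, against 8.23% in cluster 4 and 5.37% in cluster 36.

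The cells that could be named as neuron classes held little CYTOR. The excitatory-neuron-like class of 7552 cells held 0.278 CPM (interval 0.195 to 0.389), with a count in 17 cells, 0.225% (exact binomial interval 0.131% to 0.360%). The GABAergic-neuron-like class of 5673 cells held 0.886 CPM and the progenitor-like class of 2473 cells 0.410 CPM. Clusters 14 and 28, led by the glycine transporter gene SLC6A5, held more, 2.80 CPM (interval 1.94 to 3.84) and 2.85 CPM (2.08 to 3.79). They stayed unnamed with 3 and 2 of 8 general neuron markers counted, and 29.2% of the cells of cluster 28 were called doublets. A share of 0.225% is the background against which to read 26.79% of cells with a count in cluster 36, at median depths of 12032 and 12636 counts per cell. With every cell thinned to 5000 counts, which left out 1600 shallower cells, the shares were 0.0551% and 16.8%. Over pooled cells, the same cluster could also differ between arrangements. These levels are not means over tags, and the treatments of the 2 arrangements differ in part. In 2DMono, Vehic 1 alone held 58777178 of the 100938299 counts. Whether the tags differ within a cluster was not tested. In cluster 2, CYTOR stood at 35.2 CPM in 2DCocu and 11.4 CPM in 2DMono, whereas the copy stood at 640 CPM and 752 CPM. Cluster 32 was also higher in 2DCocu, with 27.0 against 10.4 CPM, on only 104 cells in 2DCocu. Clusters 36, 27 and 31 were higher in 2DMono, with 44.1 against 32.6, 13.4 against 10.9 and 19.8 against 9.82 CPM, and there the counting intervals overlapped.

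**Figure D3:**
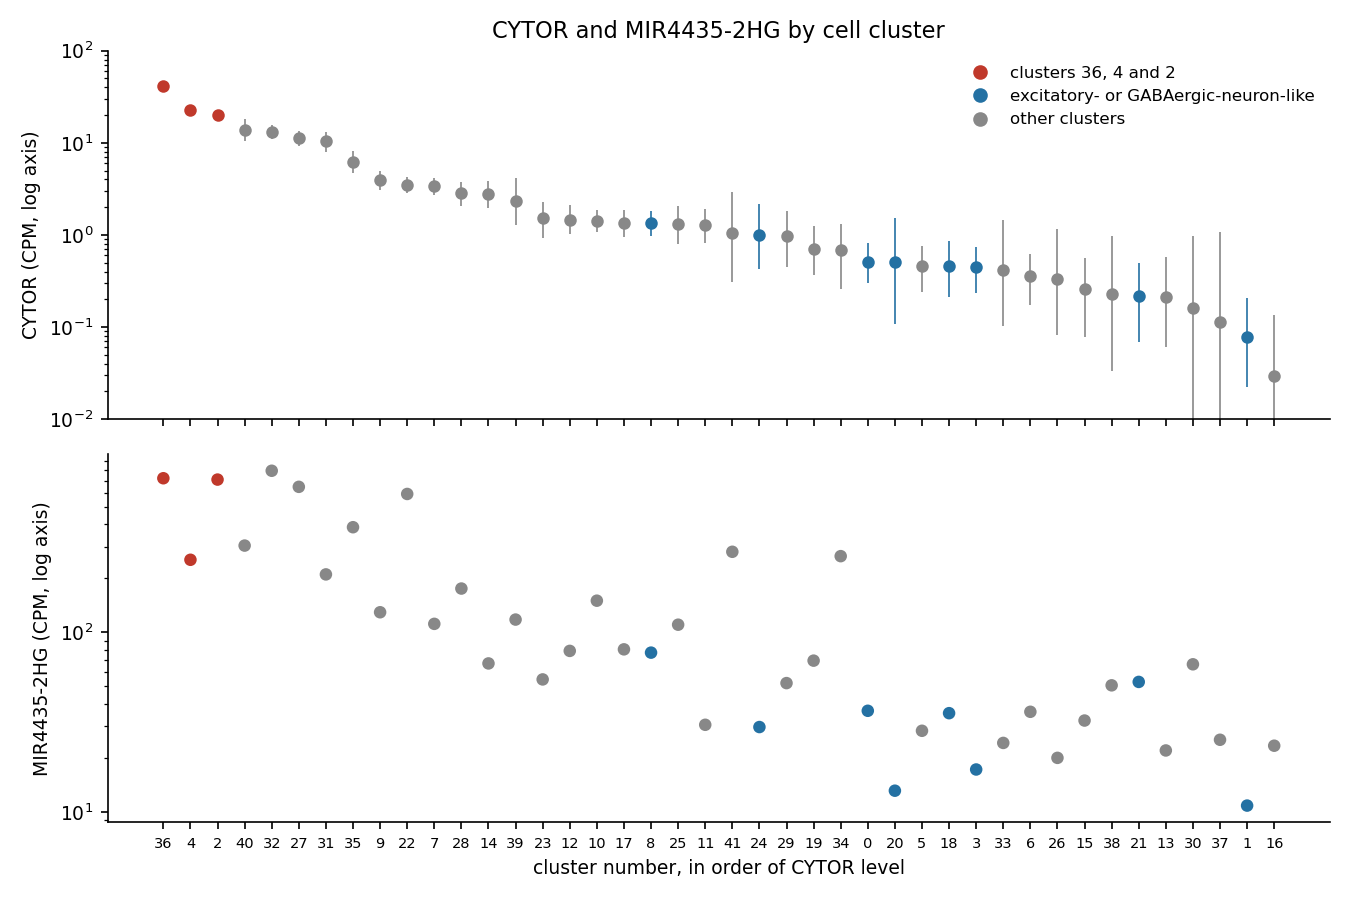
CYTOR (upper panel, CPM on a log axis, bars are 95% intervals for counting error) and MIR4435-2HG (lower panel, CPM on a log axis) in the 42 clusters, ordered by CYTOR level. Red marks clusters 36, 4 and 2, blue the excitatory- and GABAergic-neuron-like clusters and grey the others; bars that pass the lower edge go on below 0.01 CPM. CYTOR falls from 41.0 CPM in cluster 36 to 0.0296 CPM in cluster 16. The copy broadly follows that order (Spearman's rank correlation 0.838), with exceptions such as cluster 22.

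Within 2DCocu, both the share of the high-CYTOR cells and the CYTOR level in them were lower in treated tags. Clusters 2, 4 and 36 together made up 51.9% ± 4.62 of the cells in Vehic, 30.8% ± 2.19 in AcMor and 29.65% ± 3.58 in AcCoc (SD, n = 4 each), with no overlap. Cluster 4 went from 31.3% of the cells in Vehic to 15.4% in AcMor and 14.6% in AcCoc. Cluster 0, excitatory-neuron-like cells, went from 6.13% to 22.6% and 26.6%. Shares are of sequenced cells, so fewer cells of one kind and more of another cannot be told apart.

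In cluster 2 the Vehic tags 1 to 4 held 42.9, 56.6, 51.2 and 52.2 CPM of CYTOR. The AcMor tags held 25.1, 18.98, 19.1 and 32.3 CPM there, and the AcCoc tags 40.2, 26.8, 23.0 and 23.2 CPM. All treated tags lay below all Vehic tags, with AcCoc tag 1 just under the lowest. In cluster 4 the Vehic tags held 28.2, 28.2, 30.5 and 33.7 CPM. The AcMor tags held 9.06, 6.72, 13.2 and 18.0 CPM there, all below Vehic. The AcCoc tags held 29.8, 18.0, 20.7 and 13.7 CPM, and AcCoc tag 1 lay among the Vehic tags.

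The smaller clusters are given as levels over the pooled cells of a treatment, and in each of them treated tags overlapped with Vehic tags, with the exception of AcCoc in cluster 40, where the nearest tags stood at 9.35 and 9.38 CPM. No tag had 20 cells of cluster 36 or 32. Cluster 36 held 63.2 CPM (interval 41.6 to 94.97) in 37 Vehic cells, 19.8 CPM (8.504 to 38.8) in 28 AcMor cells, while the interval was 8.45 to 35.1 CPM in 33 AcCoc cells. Cluster 27 held 21.0 CPM in Vehic, 5.30 in AcMor and 6.92 in AcCoc, but Vehic 3 stood at 8.499 CPM, below AcCoc 2 at 8.74 and AcMor 3 at 11.7 CPM. Cluster 31, unnamed although all 8 cycling markers were counted in it (MKI67 at 651 CPM), held 15.3, 6.17 and 6.01 CPM in the same order. There Vehic 2 stood at 8.71 CPM, below AcCoc 1 at 12.3 CPM. The cluster named cycling, 32, held 28.7, 31.3 and 20.6 CPM with wide intervals. Cluster 40 held 18.6 CPM in Vehic and 16.8 CPM in AcMor, but 3.88 CPM in AcCoc.

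With the shares of 12 clusters fixed at their mean over the 2DCocu tags, CYTOR was 18.6 ± 2.24 CPM in Vehic, 8.68 ± 1.80 in AcMor and 10.7 ± 2.96 in AcCoc. The log2 differences were then -1.10 and -0.80, against -1.44 and -1.23 with the shares as they were, and no treated tag reached a Vehic tag. With the levels fixed instead and the shares left to vary, CYTOR was 21.7 ± 1.83, 16.9 ± 1.13 and 16.0 ± 1.85 CPM, log2 differences of -0.36 and -0.44. The 12 clusters held 95.34% to 98.23% of each tag's counts. Both parts of the difference were measured with clusters made from the same cells.

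**Figure D4:**
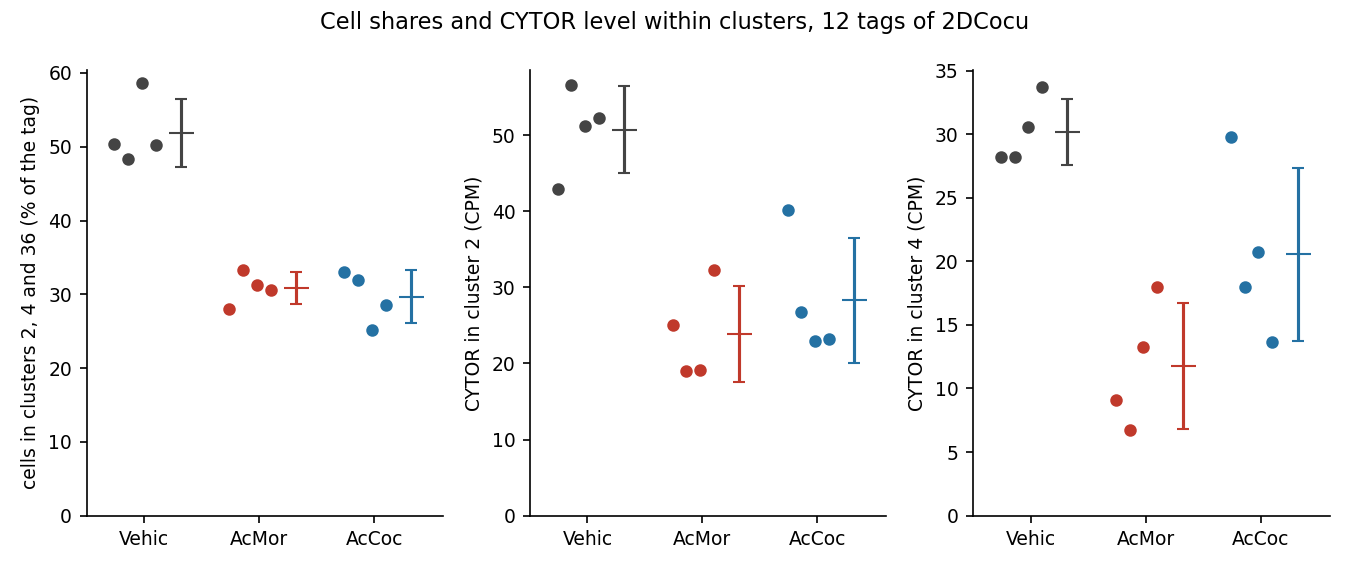
Share of cells in clusters 2, 4 and 36 (% of the tag), CYTOR level in cluster 2 and CYTOR level in cluster 4 (both CPM) in the 12 tags of 2DCocu by treatment; points are tags, and the bar beside them is the mean with 1 SD (n = 4). Vehic lies above both treatments in the first 2 panels; in cluster 4 the AcCoc tag at 29.8 CPM lies among the Vehic tags.

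CYTOR was lower in 3DMono than in 2DMono. It stood at 0.319 ± 0.1203 CPM (SD, n = 6) in 3DMono and 9.91 ± 3.50 CPM (n = 6) in 2DMono, and the tags did not overlap. Fitted with treatment as a covariate, it fell by 5.19 on the log2 scale (SE 0.326, edgeR quasi-likelihood test, adjusted p = 2.85e-08), 36.5-fold. CYTOR passed the filter on low counts here through its 2DMono counts, and in 3DMono alone it did not pass. The 3DMono tags held only 2.62 to 6.96 CYTOR counts each, close to the floor of 3. The size of that fall is therefore uncertain, and its p is not taken as support. In this contrast 38.0% of 21862 genes passed the test, 20.4% of them all being lower in 3DMono, so a lower level was common among genes. MIR4435-2HG fell by 4.08 (SE 0.151, edgeR adjusted p = 4.34e-10), from 485 ± 138 to 32.6 ± 4.75 CPM, and CYTOR made up 1.98% ± 0.398 of the pair in 2DMono and 0.964% ± 0.359 in 3DMono. The clusters 2, 4 and 36 made up 15.6% to 41.96% of the cells in 2DMono tags and at most 0.0881% in 3DMono tags. Format and handling of the 2 arrangements cannot be told apart.

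CYTOR was also lower in 3DFusi than in 2DCocu, 1.67 ± 1.504 CPM (SD, n = 10) against 13.2 ± 6.92 CPM (n = 12), with no overlap. The log2 difference was -2.95 (SE 0.454), given with no test because the 2DCocu tags are those on which the gene was chosen. Of 22511 genes 48.8% passed edgeR's test in this contrast, and 22.7% were lower in 3DFusi. MIR4435-2HG stood at 59.9 ± 23.6 CPM in 3DFusi and 259 ± 56.4 CPM in 2DCocu, and CYTOR made up 2.30% ± 1.47 and 4.63% ± 1.57 of the pair. The clusters 2, 4 and 36 made up at most 0.0803% of the cells of a 3DFusi tag. Over the treatments they share, 2DCocu minus 2DMono was 0.48 on the log2 scale, a description with no test. Vehic stood at 22.0 CPM in 2DCocu and 9.97 CPM in 2DMono with no overlap, and AcMor at 8.13 and 9.18 CPM, where the tags overlapped.

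Between the 2 treated 3-D arrangements, CYTOR was higher in 3DFusi in mean only, 1.32 ± 0.874 CPM (SD, n = 6) against 0.309 ± 0.135 CPM (n = 4) in 3DMono, over the AcMor and Vehic tags. The tags overlapped, since 3DFusi Vehic 1 stood at 0.167 CPM. The log2 difference was 2.06 (SE 0.689) and missed the threshold (edgeR adjusted p = 0.145), with 1.47% of 23861 genes called. With the tag number as a block it was 0.45 (edgeR adjusted p = 0.866). Only number 1 occurs in both arrangements, so that fit sets only the tags numbered 1 against each other. It cannot decide whether the other tags differ. Without the block the difference passed with DESeq2 (adjusted p = 0.0434) and in edgeR without 3DFusi Vehic 1 (2.38, adjusted p = 0.0238). The copy differed by 0.81 (SE 0.194, edgeR adjusted p = 0.0622).

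The AcMor, AcCoc and AcDop tags outside 2DCocu gave no called difference in CYTOR. In 3DFusi the log2 difference from Vehic was 0.76 (SE 1.10) for AcMor and 1.19 (SE 1.06) for AcCoc, both with an edgeR adjusted p of 1.0. Leaving out 1 tag moved the first from 0.13 (without Vehic 1) to 1.53 (without Vehic 4) and the second from 0.33 (without AcCoc 3) to 1.96 (without Vehic 4). These fits do not pair the tags by number. With the tag number as a block the differences were 0.64 (SE 0.5435) and 1.08 (SE 0.5235), and neither was called. Without the block, no gene of 23679 (0.00%) was called in either contrast by edgeR, 177 and 393 genes had an unadjusted p of 0.05 or less, and DESeq2 called 0 and 1. Set within one tag number, CYTOR stood at 0.110, 0.515 and 0.167 CPM in AcCoc, AcMor and Vehic of number 1. It stood at 4.85, 2.31 and 1.09 CPM in number 3 and at 3.17, 1.75 and 2.12 CPM in number 4, so number 1 was lowest in all 3 treatments while the order of the treatments changed from number to number.

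In 2DMono the log2 difference was -0.10 (SE 0.456, edgeR adjusted p = 0.979) for AcMor and 0.23 (SE 0.457, edgeR adjusted p = 1.0) for AcDop. Leaving out 1 tag turned the sign of either. The copy differed by -0.38 (SE 0.289, edgeR adjusted p = 0.839) and 0.14 (SE 0.289, edgeR adjusted p = 1.0). Clusters 2, 4 and 36 made up 15.6% and 20.7% of the cells in the AcMor tags, 19.9% and 38.9% in the AcDop tags and 32.5% and 41.96% in the Vehic tags, so AcMor lay below Vehic and AcDop overlapped with it. No gene of 19416 (0.00%) was called by edgeR in either contrast, 1247 and 467 genes had an unadjusted p of 0.05 or less, and DESeq2 called 13 and 12 genes higher and 5 and 1 lower. Whether the AcMor difference of 2DMono differs from the -1.44 of 2DCocu was not tested, since the latter chose the gene.

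In 3DMono CYTOR did not pass the filter on low counts. Fitted without the filter, the log2 difference was -0.27 (SE 0.780, edgeR adjusted p = 0.994) for AcMor and 0.20 (SE 0.818, edgeR adjusted p = 1.0) for AcDop. No gene of 22112 (0.00%) was called by edgeR in these contrasts, with 1925 and 740 genes at an unadjusted p of 0.05 or less, and DESeq2 called 88 and 8 genes higher and 85 and 7 lower. The AcMor difference in 3DMono minus that in 2DMono was -0.18 (SE 0.863, edgeR adjusted p = 0.998), where edgeR called 0 genes (0.00%) of 22671, 858 had an unadjusted p of 0.05 or less and DESeq2 called 1.

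**Figure D5:**
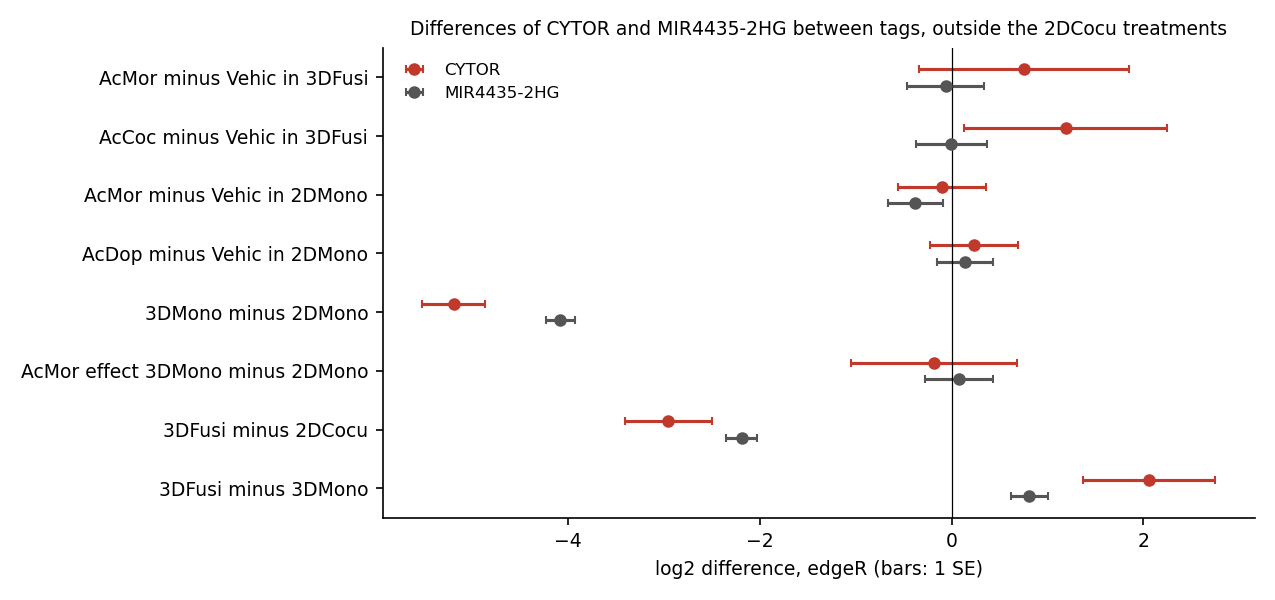
Log2 differences of CYTOR (red) and MIR4435-2HG (grey) from edgeR in the 8 fitted comparisons outside the 2DCocu treatments; points are estimates and bars 1 SE, and the row of the AcMor effect is a difference of 2 differences. CYTOR stands at -5.19 for 3DMono minus 2DMono and -2.95 for 3DFusi minus 2DCocu, with the copy nearer to 0 in both, and the treatment rows have bars of up to 1.10.

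In 1 class of cells CYTOR was lower in 3DMono than in 2DMono as well, though largely between different clusters of that class. Cycling cells, the class with markers of cell division such as MKI67 and TOP2A, stood at 0.267 ± 0.302 CPM of CYTOR in 3DMono and 8.12 ± 3.92 CPM in 2DMono (SD, n = 6 each), a log2 difference of -4.55 (SE 0.635, edgeR adjusted p = 1.52e-05). In that class 34.7% of 13045 genes were called. Different clusters hold the class in the 2 arrangements, 11 and 32 for most of its 2DMono cells and 15 and 13 for most of its 3DMono cells. Cluster 32 held 87.1 of the 100.3 CYTOR counts of the class in 2DMono, and the class sum in 3DMono was 3.58 counts. CYTOR thus passed the filter through its 2DMono counts. The size of the difference is uncertain, and its p is not taken as support. In cluster 13 it stood at 0.702 CPM (interval 0.0159 to 3.50) in 2DMono and 0.183 CPM (0.00553 to 1.22) in 3DMono. In cluster 15 it stood at 2.885 CPM (0.424 to 12.6) and 0.280 CPM (0.0631 to 0.8945), so the intervals overlapped in each. In the GABAergic- and excitatory-neuron-like classes CYTOR did not pass the filter, while 21.2% and 34.6% of the genes tested were called between 3DMono and 2DMono, and 40.4% in the second class between 3DFusi and 2DCocu. The first held 2.52 CYTOR counts in 1013 cells of 3DMono and 8.485 counts in 678 cells of 2DMono. The second held 3.12 counts in 1696 cells of 3DMono and 14.75 counts in 1648 cells of 2DMono, and 1.22 counts in 925 cells of 3DFusi and 10.97 counts in 2278 cells of 2DCocu. Fitted without the filter, the log2 difference of 3DMono and 2DMono was -2.597 (edgeR adjusted p = 0.0835) in the first and -1.90 (edgeR adjusted p = 0.126) in the second. For 3DFusi and 2DCocu in the second class it was -2.605, on 1.22 counts in 3DFusi and given with no test because the 2DCocu tags chose the gene.

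Genes of the actin cytoskeleton, with which CYTOR is linked, were mostly lower in 3DMono than in 2DMono, where 17.5% of all genes rose and 20.4% fell. The gene lists were chosen with earlier results of these data known. Their counts are a description, and a link with CYTOR was not tested. Of 29 tested members of an actin and adhesion list, 0 rose and 20 fell (DESeq2 1 and 20; 22 had an unadjusted p of 0.05 or less), with a median of -0.98 against 0.031 over all genes tested. TAGLN, an actin-binding protein of smooth muscle, fell by 4.15 (SE 0.352), CALD1, which holds actomyosin in check, by 3.73 (SE 0.141), the tropomyosin TPM1 by 3.22 (SE 0.123) and the myosin heavy chain MYH9 by 2.84 (SE 0.150). Of 21 tested members of a list of YAP and TEAD targets, which also holds the factors YAP1, WWTR1 and TEAD1 themselves, 0 rose and 16 fell (DESeq2 0 and 16; 18 at an unadjusted p of 0.05 or less), with a median of -1.499. The matricellular gene CCN2 fell by 5.49 (SE 0.364), the phosphatase PTPN14 by 3.42 (SE 0.161), the widely used YAP target ANKRD1 by 2.96 (SE 0.491) and the growth factor TGFB2 by 2.39 (SE 0.170).

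Of 25 tested mesenchymal-transition genes 1 rose and 20 fell, with a median of -1.56. CD44 fell by 5.26 (SE 0.231), the membrane protein EMP1 by 3.77 (SE 0.199) and S100A10 by 3.22 (SE 0.354). Of 35 other long noncoding RNAs, the copy included, 8 rose and 11 fell, with a median of 0.081, near that of all genes. NEAT1, the backbone of nuclear paraspeckles, fell by 2.35 (SE 0.208), MIR100HG by 1.95 (SE 0.114) and RMST, which is known from neurogenesis, by 1.79 (SE 0.244). DESeq2 called 1 and 8 members of these 2 lists higher and 21 and 11 lower. All of these values are log2 differences from edgeR, and of all genes 17.5% rose and 20.4% fell in this contrast. The share of clusters 2, 4 and 36, given above, differs between the same tags, and its part in these values was not tested.

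In 3DFusi against 2DCocu, where CYTOR was lower as well, members of each list rose and others fell, as did 26.1% and 22.7% of all genes. There 9 of 29 actin genes rose and 9 fell (median -0.067 against 0.045 over all genes), 6 of 21 members of the YAP and TEAD list rose and 8 fell, and 6 of 26 mesenchymal-transition genes rose and 7 fell. TMSB10, which binds actin monomers, rose by 2.34 (SE 0.327) and beta-actin ACTB by 1.52 (SE 0.201), while TAGLN2 fell by 1.91 (SE 0.204). Among YAP and TEAD targets DLC1 rose by 2.07 (SE 0.339), GADD45B by 1.79 (SE 0.306) and CCN1 by 1.33 (SE 0.217). CD44 fell by 2.55 (SE 0.215) and S100A10 by 1.54 (SE 0.382), and the transcription factors TWIST1 and SNAI1 rose by 1.604 (SE 0.314) and 1.55 (SE 0.438). Of 35 long noncoding RNAs other than CYTOR and its copy, 12 rose and 12 fell, among them DLX6-AS1, an RNA of GABAergic neurons, which rose by 4.32 (SE 0.337), NEAT1, which fell by 2.73 (SE 0.323), and H19, which fell by 2.00 (SE 0.383). The part of the cell shares in these values was not tested either.

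The 2DCocu treatments are the contrast on which CYTOR was chosen, so the counts of the lists there are given without a reading. For AcMor against Vehic 0.685% of all genes rose and 0.290% fell, and for AcCoc against Vehic 3.60% rose and 2.50% fell. For AcMor against Vehic, 0 actin genes rose and 1 of 29 fell, VCL (vinculin, a focal adhesion protein), by 0.56 (SE 0.111). Of 21 members of the YAP and TEAD list 0 rose and 2 fell, both of them co-activators and not targets, WWTR1 by 0.55 (SE 0.103) and YAP1 by 0.53 (SE 0.117). Of 25 mesenchymal-transition genes 0 rose and 1 fell, the membrane-binding gene ANXA2, by 0.65 (SE 0.145). DESeq2 called 0 members higher and 1, 3 and 4 lower in these lists, and edgeR's unadjusted p was 0.05 or less in 6, 7 and 7. For AcCoc against the same Vehic tags, 0 actin genes rose and 3 of 29 fell, ACTN1 by 0.61 (SE 0.114), TPM1 by 0.55 (SE 0.152) and VCL by 0.43 (SE 0.110). Of the YAP and TEAD list FJX1 rose by 0.95 (SE 0.243) and 4 fell, among them PTPN14 by 0.68 (SE 0.127), the co-activator WWTR1 by 0.58 (SE 0.102) and the receptor kinase AXL by 0.51 (SE 0.1396). Of the mesenchymal-transition genes 0 rose and 2 fell, ANXA2 by 0.65 (SE 0.145) and LGALS3 by 0.57 (SE 0.151). Of 35 long noncoding RNAs other than CYTOR and its copy, 0 rose and 2 fell, NEAT1 by 0.86 (SE 0.191) and PVT1 by 0.34 (SE 0.0922). DESeq2 called 3 of them higher for AcCoc, and neither tool called any of them for AcMor. The medians of the actin, YAP and TEAD, and mesenchymal-transition lists were -0.063, -0.14 and -0.10 for AcMor and -0.15, -0.44 and -0.43 for AcCoc, against 0.0067 and -0.0017 over all genes. DESeq2 called 0, 1 and 1 members of these 3 lists higher and 5, 6 and 4 lower for AcCoc, and edgeR's unadjusted p was 0.05 or less in 11, 10 and 11. The change in cell shares described above moves with all of these values, and its part in them was not tested.

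Between 3DFusi and 3DMono, where 1.07% of all genes rose and 0.394% fell, 1 of 29 actin genes rose and 0 fell, the membrane linker MSN by 0.94 (SE 0.202). Of 21 members of the YAP and TEAD list 2 rose and 0 fell, DLC1 by 2.59 (SE 0.557) and the co-activator WWTR1 by 1.24 (SE 0.257). Of 26 mesenchymal-transition genes 5 rose and 0 fell, with a median of 1.38 in the latter. EMP1 rose by 3.17 (SE 0.617), ANXA1 by 2.55 (SE 0.549) and CD44 by 1.77 (SE 0.314). HOTAIRM1 was the 1 other long noncoding RNA of 37 that rose, by 3.36 (SE 0.534), and 0 fell. DESeq2 called 2, 6, 13 and 6 members of the 4 lists higher and 0, 0, 0 and 1 lower, and edgeR's unadjusted p was 0.05 or less in 7, 11, 21 and 11. In the AcMor, AcCoc and AcDop contrasts of 3DFusi, 2DMono and 3DMono edgeR called 0 members of any list, with an unadjusted p of 0.05 or less in at most 5 of a list. DESeq2 called 1 long noncoding RNA higher for AcMor in 2DMono and 1 mesenchymal-transition gene lower for AcMor in 3DMono.

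The genes whose levels ran most like CYTOR are named by rank. Over the 46 tags the Pearson correlation of log2(CPM + 1) was highest for SLC15A1 (0.932), TPST2, IL6R, SYNM, SERPINB8, DNAH5, CPPED1, SMAD7, PMEPA1 and CRACDL (0.909), among 13666 genes with a mean of at least 5 CPM. SMAD7 and PMEPA1 are known feedback genes of TGF-beta signalling, and SYNM encodes an intermediate filament protein. SLC15A1 stood at 59.7 ± 24.0 CPM in 2DMono (SD, n = 6) and 35.3 ± 10.4 CPM in 2DCocu (n = 12), against 1.08 ± 0.471 CPM in 3DMono (n = 6) and 1.74 ± 1.36 CPM in 3DFusi (n = 10). It thus differed from CYTOR in being higher in 2DMono than in 2DCocu in mean. The lowest correlations were those of NARF (-0.902), OAZ2, ZNF880, HNRNPK and FGF9. MIR4435-2HG came 72nd with 0.853.

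Over the 42 clusters the highest were ELN (0.895), SLC15A1, VMP1, HRH1, SERPINB8, FBLN5, CD44, ITGB4, ENSG00000249590 and SEC14L2 (0.848), among 13656 genes. ELN and FBLN5 are genes of elastic fibres. The lowest were STAU2 (-0.830), PHF14, ABHD15-AS1, ZNF782 and NEDD4L, and MIR4435-2HG came 19th with 0.8291. By Spearman's rank correlation over clusters the copy came 6th with 0.838. SLC15A1 and SERPINB8 stood in both lists of 10. ELN stood at 122 ± 44.8 CPM in 2DMono (SD, n = 6) and 3.51 ± 0.992 CPM in 3DMono (n = 6). Tags and clusters share cells, depth and the arrangement from which they come, and these correlations carry no p.

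Of the genes beside CYTOR on the chromosome, 2 had a row in the table. LINC01943, a noncoding RNA that overlaps its start, stood at 0.146 ± 0.167 CPM in 2DCocu (SD, n = 12) and 0.274 ± 0.238 CPM in 3DFusi (n = 10). Reads from the overlap of both genes cannot be told apart without strand. The pseudogene PAFAH1B1P1 was at 0 in every tag. BCL2L11, which lies beside the copy in RefSeq's gene model and within the longer span of GENCODE's, and which was looked at after its values were seen, stood at 4.97 ± 1.33 CPM in 2DCocu, 4.38 ± 1.68 in 2DMono (n = 6), 5.01 ± 1.04 in 3DFusi and 5.62 ± 0.684 in 3DMono (n = 6). Its log2 difference between 3DMono and 2DMono was 0.19 (SE 0.216, edgeR adjusted p = 0.531), where the copy fell by 4.08. By cluster, BCL2L11 stood at 1.48, 2.62, 2.15, 2.335 and 1.45 CPM in clusters 36, 4, 2, 32 and 27. It stood at 3.78, 5.095 and 5.50 CPM in clusters 40, 31 and 35. Whether BCL2L11 moves with the copy across clusters was not tested.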

How the data were processed

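PolyA RNA of single cells was measured in 8 sublibraries of one split-pool barcoding experiment. The authors deposited expected counts (estimated counts per gene and cell, not normalized) as a matrix of 60286 genes and 43693 cells, of whose entries 54.3% are whole numbers. The submitters' processing notes name Salmon 1.7.0, alevin, Seurat 4.1.1 and the build hg38; how cells were filtered and reads shared by 2 genes were handled was not given in the sources used here. Every deposited cell had at least 1006 genes and 3374 counts and at most 10.0% mitochondrial counts. Cells were mapped to culture tags by their names, and 0 columns were left unused.

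CYTOR, its copy and the gene lists were chosen with earlier results of these data known. Counts were summed per tag and given as CPM. For tests the sums were rounded and fitted with edgeR 4.0.16 in R 4.3.3 (TMM, filterByExpr, robust quasi-likelihood test), with Benjamini-Hochberg adjustment over all genes tested in a contrast and a threshold of 0.05; DESeq2 1.42.0 was an alternative. On simulated counts for 3DMono against 2DMono (21399 genes tested), the script called 100% of genes changed by 2 on the log2 scale in either direction. It called 85.4% of those changed by -1 and 94.3% of those changed by 1, with 5 false calls. The simulation changed only 60, 41, 53 and 46 genes by -2, -1, 1 and 2, above a minimum mean count and with 1 fixed spread between tags. It does not show how the script does where 38.0% of genes are called, as in the real contrast. Cells were clustered with scanpy 1.11.5 and leidenalg 0.10.2 on 2000 variable genes, 30 principal components and 20 neighbours at resolution 0.8, without CYTOR and its copy. The 1132 cells called doublets (2.591%) were kept, and an alternative removed them. A cluster was named from fixed marker lists if 3 or more of a list's markers, making up 40% or more of that list, were each found in 10% of the cluster's cells and stood 2 times as high as outside it, unless its 10 leading genes held more markers of another list. Intervals are 95%, exact, and, like the floor of 3 counts, cover counting error only. In 3DFusi, deviations of same-numbered tags from their group means correlated in all 9 pairs (0.138 to 0.566, median 0.325), so the numbers pair those tags, although the labels do not say what a number marks.

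Named genes are CYTOR and its copy, the 10 most and 5 least correlated genes over tags and over clusters, up to 4 members of each list that passed in a contrast (those with the largest differences), and the chromosome neighbours. One gene that this rule names is not reported here. Alternatives left out each tag in turn, changed the scaling, filter, tool, clustering, entries read and samples fitted, and added the tag number as a block. The design had foreseen a test of 3DFusi minus 2DCocu; its p is not given for CYTOR or its copy, since the 2DCocu tags chose the gene. Those chosen after seeing the data are identified as such. Transcripts are those of GENCODE and promoter windows those of RefSeq, and no other genome sequence was used.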

Additional observations from a re-analysis of the deposited data

Results flagged for a closer look

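In 2DCocu Vehic, the tag numbered 1 stood apart in MIR4435-2HG, with 362.1 CPM against 313.1 to 318.8 CPM in the other 3 tags of the group. Its gap to the nearest of the others was larger than Dixon's 95% limit allows. Levels were tested in this way in 20 sets of values, and chance flags about 1 in 20. The same tag had the lowest CYTOR level of its group, 19.04 CPM against 22.6 to 23.5 CPM.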

How the results depend on the processing

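For the AcMor and AcCoc differences of 2DCocu, leaving out each tag in turn gave -1.56 to -1.35 and -1.496 to -1.09 on the log2 scale. The AcMor difference was -0.74 with whole-number entries only, -0.59 with the copy summed in, -1.10 with cluster shares fixed and -1.08 with shares fixed at resolution 0.4. The AcCoc difference was -0.59, -0.80 and -0.78 under the last 3 of these. At resolution 0.4 the lead clusters held 70.11% of CYTOR counts. Of the 10 genes most like CYTOR, 6 over tags and 4 over clusters stayed among the first 10 at a minimum of 20 CPM, 5 and 1 with Spearman's rank correlation, and 2 over the tags of the 4 treated arrangements. Leaving out each tag gave -5.35 to -4.96 for 3DMono minus 2DMono, past the threshold in edgeR each time, and -3.36 to -2.69 for 3DFusi minus 2DCocu. It gave 1.601 to 2.38 for 3DFusi minus 3DMono, where DESeq2 gave 2.01 (adjusted p = 0.0434; edgeR adjusted p 0.0238 to 0.301 over the tags left out). Values that missed the threshold turned sign more easily. With the copy summed in, AcMor in 3DFusi was -0.049 and the AcMor difference of 3DMono minus 2DMono 0.073. These sums are mostly the copy, which alone gave -0.063 and 0.076. AcMor and AcCoc in 3DFusi ran from 0.13 to 1.53 and from 0.33 to 1.96 with each tag left out. AcMor in 2DMono ran from -0.72 to 0.41, positive without AcMor 1 (0.35) or Vehic 2 (0.41). AcDop in 2DMono ran from -0.28 to 0.75, negative without AcDop 2 (-0.10) or Vehic 1 (-0.28). The AcMor difference of 3DMono minus 2DMono ran from -0.80 to 0.58, positive without 2DMono AcMor 2 (0.42), 2DMono Vehic 1 (0.29), 3DMono AcMor 1 (0.58) or 3DMono Vehic 2 (0.017). With the replicate block, the paired values in 3DFusi were 0.64 for AcMor and 1.08 for AcCoc, and the block changed no call of CYTOR. It gave -0.14 and 0.18 for AcMor and AcDop in 2DMono, -5.11 for 3DMono minus 2DMono, -0.17 for the difference of AcMor differences, -3.27 for 3DFusi minus 2DCocu and 0.45 for 3DFusi minus 3DMono. The last of these rests on the tags numbered 1 alone. Same-numbered tags correlated at -0.297 to 0.112 in 2DCocu and -0.129 to 0.118 in 2DMono. In 3DMono such pairs lay at 0.062 to 0.237. A group of 2DMono or 3DMono has 2 tags, whose deviations from their mean mirror each other. Pairs of number 1 and pairs of number 2 therefore repeat the same values, and the 6 pairs are not 6 separate observations. The labels do not say what a number marks in these arrangements either. DESeq2 called 413 genes higher and 283 lower for AcMor in 2DCocu (edgeR 144 and 61), 1180 and 830 for AcCoc (edgeR 758 and 525), and 1042 and 477 for 3DFusi minus 3DMono (edgeR 256 and 94). The cause of these shifts was not tested. For AcMor and AcDop in 3DMono, where CYTOR did not pass the filter, unfiltered fits gave -0.19 and 0.092 with DESeq2, -0.36 and -0.087 with the copy summed in, and -0.35 and 0.16 with all 4 arrangements in 1 fit. No tag was left out there. With 2.62 to 6.96 counts a tag, depth limits every CYTOR value of 3DMono. The alternative on cells without a copy entry and the leaving out of tags for 2DCocu minus 2DMono (0.25 to 0.84) were chosen after seeing the data.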
